A study of Mus musculus with 6 samples.

Results

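Receptor subunits for GM-CSF and for interleukins were followed across mouse dendritic cells that carried 1 of 3 virus states, each without and with TNFa. They are 10 named genes: Csf2ra, Csf2rb, Il2rg, Il4ra, Il6ra, Il10ra, Il10rb, Il13ra1, Il15ra and Il17ra. Every probe set whose platform annotation gives exactly 1 of these symbols was taken, whatever its signal. That gave 21 probe sets for 9 of the 10 genes, among 20380 probe sets with 1 symbol that name 12393 genes. No probe set was matched to Il2rg, which is named only. Another probe set names Csf2rb together with Csf2rb2 and was left out.

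The cells were grown from bone marrow of a female CAR-transgenic mouse aged 13 weeks; the labels do not spell out CAR. Progenitors were expanded for 7 days with stem cell factor and other factors that included 25 U/ml GM-CSF and 5 ng/ml hyperIL-6, a fusion of IL-6 with its soluble receptor. They were then differentiated for 7 days in 250 U/ml GM-CSF, so every group, the untreated one included, had been exposed to the ligands of some of the receptors described here. Total RNA (8 ug) from each group was measured on 1 Affymetrix MOE430A array. The untreated group received neither virus nor TNFa, and the TNFa group received 50 ng/ml TNFa for 4 h. The AdOVA group received the control adenovirus at 1500 particles per cell for 2 h and was cultured for 18 h more, and the AdOVA+TNFa group then had the same TNFa treatment. The AdIkBa-SR and AdIkBa-SR+TNFa groups were treated in the same way with an adenovirus named for IkBa, the inhibitor that holds NF-kB in the cytoplasm. No separate cultures or animals are named for the groups, and no group that went through the transduction steps without virus is described, so an AdOVA effect and an effect of those steps cannot be told apart.

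The receptors fall into a few shared designs. A private chain binds the ligand and a shared chain carries the signal, mostly through JAK kinases and STAT factors; receptors of the IL-17 family instead use the adaptor Act1. In dendritic cells, GM-CSF receptors support growth and differentiation, the IL-15 receptor alpha chain holds IL-15 on the surface for neighbouring lymphocytes, and receptors for IL-4, IL-10 and IL-13 tune maturation.

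Il15ra and Il13ra1 carry the results, so the 250 bases upstream of their RefSeq starts (build GRCm38.p6, plus strand) are printed first. A promoter entry for 6 of the 10 genes was found in the RefSeq table, with 2 windows for Il15ra. Each window was searched on both strands, from 250 bases before the start to 50 after, for an NF-kB pattern (GGGNNNNNCC), an interferon regulatory factor pattern (GAAANNGAA), the interferon-stimulated response element (GAAANNGAAA), whose matches also match the shorter pattern, and a STAT pattern (TTCNNNGAA). Capitals mark matches. The first line is chr2:11705043-11705292, the second chr2:11705462-11705711 and the third chrX:36111858-36112107.
Il15ra, first start: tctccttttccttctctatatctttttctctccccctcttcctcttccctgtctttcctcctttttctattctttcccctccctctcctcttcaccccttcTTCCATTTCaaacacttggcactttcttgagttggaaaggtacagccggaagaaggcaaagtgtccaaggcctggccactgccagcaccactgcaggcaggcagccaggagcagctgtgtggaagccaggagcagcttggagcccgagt
Il15ra, second start: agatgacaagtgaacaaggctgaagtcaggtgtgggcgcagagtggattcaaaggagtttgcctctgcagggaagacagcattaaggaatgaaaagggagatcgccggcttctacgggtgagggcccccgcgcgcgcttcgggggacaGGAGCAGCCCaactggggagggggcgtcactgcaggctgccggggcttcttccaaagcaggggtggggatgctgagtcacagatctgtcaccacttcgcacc
Il13ra1: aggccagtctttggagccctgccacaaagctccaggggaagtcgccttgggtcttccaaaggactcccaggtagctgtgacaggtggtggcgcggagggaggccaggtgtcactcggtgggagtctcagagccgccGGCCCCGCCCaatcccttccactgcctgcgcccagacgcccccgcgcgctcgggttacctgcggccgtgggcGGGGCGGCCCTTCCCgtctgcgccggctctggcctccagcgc

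The first Il15ra window held 1 interferon regulatory factor match on the minus strand, at -149 to -141, with the start base counted as 0. The second held 1 NF-kB match on the minus strand, at -102 to -93, and 1 interferon regulatory factor match, GAAAGCGAA, at 30 to 38 after the start. The Il13ra1 window held 3 NF-kB matches, at -114 to -105, -42 to -33 and -37 to -28, of which the last 2 overlap. The NF-kB pattern was in windows of 5 of the 6 genes and in 50.8% of all 32851 promoters of that table, so a match is common. The interferon regulatory factor pattern was in 8.56% of all promoters and, among the receptor genes, in Il15ra. The interferon-stimulated response element (3.44% of promoters) and the STAT pattern (8.30%) had no match in the 7 receptor windows, which says only that these letters are not in these windows.

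Signals are MAS5 intensities, 1 per probe set. The 6 arrays had median signals between 74.4 and 88.5, and 57.9% to 63.4% of their probe sets exceeded 53.5, a floor placed at the 40th percentile; anything lower was raised to it before taking log2. Of the 21 receptor probe sets, 20 were above the floor on at least 2 arrays and were tested. Arrays were grouped by the hybridization date recorded for each, and this grouping is called the fluidics round here. The untreated, TNFa and AdOVA arrays were in round 1 and the others in round 2. The AdIkBa-SR array alone had another wash protocol. The brightest measured Nfkbia probe set, for the mouse gene of IkBa, read 10622 in the untreated, 16337 in the AdOVA and 10118 in the AdIkBa-SR group; the labels do not say whether any Nfkbia probe set can detect the IkBa of the virus, so it does not check the label. The dendritic cell markers gave summed signals of 4819 to 7052, with 7 of 10 above the floor on all arrays. Among them, Itgax fell with AdOVA (699 to 247 in the untreated pair, log2 -1.35) and rose with AdIkBa-SR against AdOVA (1.40), Ccr7 did the reverse (1.29 and -1.68), and Zbtb46 1453856_at fell with AdIkBa-SR against AdOVA (-0.995). These passed limma's test. Zbtb46 1453856_at read 11.3, under the floor, on the AdIkBa-SR array with the other wash protocol. Zbtb46 1429168_at, at 62.9 with AdOVA and 63.5 with AdIkBa-SR, was not called. The macrophage or monocyte sum ran from 21179 untreated to 28612 with AdOVA, with none of the 4 genes called. Cd14 carried that rise, from 8866 to 16297. Adgre1 (4725 to 4795) and Csf1r (7242 to 7368) moved little, and Mertk went down from 345 to 152. T cell markers summed to 97.9 to 151, and 4 of the 5 with a probe set were under the floor on all arrays. B cell markers summed to 129 to 218 and NK cell markers to 210.4 to 284, with none called. The granulocyte marker sum was 9529 in AdOVA+TNFa and 24677 in AdIkBa-SR+TNFa, most of it from S100a8 (4190 and 9756) and S100a9 (2618 and 8866). Ltf and Camp rose with AdIkBa-SR against AdOVA, 2 of 7 genes. Of those not called, Ngp, S100a8 and S100a9 were higher in both pairs. Mpo was lower in both (162 to 116 and 147 to 114), and Elane was lower without TNFa (124 to 83.6) and higher with it (29.7 to 99.4). The mast cell or basophil sum ran from 819.9 in AdOVA+TNFa to 1581 in AdIkBa-SR, where Cpa3 and Mcpt8, 2 of 5 genes, rose against AdOVA; Cpa3 fell with AdOVA. Their part in the receptor results was not tested, and in whole-culture RNA fewer cells of a type and less RNA per cell cannot be told apart.

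Il15ra and Il13ra1 rose with AdOVA, by 0.89 to 1.69 on the log2 scale in their called probe sets. Both fell with AdIkBa-SR against AdOVA, by 0.95 to 1.55. The other receptor subunits passed the test in neither comparison. In limma's fit to all 6 arrays (Benjamini-Hochberg over 14906 probe sets), 6 of the 20 receptor probe sets, from 2 genes, rose with AdOVA and 0 fell, where 4.03% of all probe sets rose and 3.86% fell. Against AdOVA, 5 fell with AdIkBa-SR and 0 rose, where 3.39% of all probe sets fell and 3.47% rose. The median log2 difference of the 20 was 0.60 with AdOVA, against 0.06 over all measured probe sets, and -0.42 with AdIkBa-SR against AdOVA, against -0.09. These medians count probe sets, of which Il13ra1 has 5 and Il15ra 2, so they do not describe each gene. By brightest probe set, Csf2rb, Il6ra, Il10rb and Il17ra were higher with AdIkBa-SR than with AdOVA (0.36, 0.15, 0.35 and 0.26). Csf2ra, Il4ra, Il10ra, Il13ra1 and Il15ra were lower (-0.09, -0.42, -0.46, -0.95 and -1.55). Both comparisons use the AdOVA arrays, so the second is not independent of the first. With 1 array per group the fit has 1 residual degree of freedom, which measures how far apart the TNFa responses of virus-free and AdOVA cells lie. The errors below therefore come from that difference pooled over probe sets, not from replicates.

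Il15ra encodes the chain that binds IL-15 and presents it to cells with the IL-2/IL-15 beta chain. Its first probe set (1422397_a_at) read 149 with no virus, 434 with AdOVA and 172 with AdIkBa-SR when TNFa was absent, and 150.3, 535 and 181 in that order when it was present. Both AdOVA arrays stood well above the other 4, which lay close together. The AdOVA signal was 2.91-fold the untreated one, and AdOVA+TNFa was 3.56-fold TNFa. limma gave a log2 difference of 1.69 (SE 0.29, adjusted p = 0.00137) for AdOVA and -1.45 (SE 0.29, adjusted p = 0.00523) for AdIkBa-SR against AdOVA. The second probe set (1448681_at) also had the AdOVA arrays on top: 188 with no virus, 515 with AdOVA and 165 with AdIkBa-SR when TNFa was absent, and 207, 482 and 176 in that order when it was present. Its fitted log2 differences were 1.34 (SE 0.28, limma adjusted p = 0.0064) and -1.55 (SE 0.28, limma adjusted p = 0.00278). Between AdIkBa-SR and no virus the fitted log2 differences were 0.24 (95% interval -0.37 to 0.84) and -0.21 (-0.80 to 0.38), neither of which passed the test. For TNFa they were 0.16 and 0.02, also short of it.

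Il13ra1 encodes the chain that binds IL-13 and pairs with the IL-4 receptor alpha chain to form the type II IL-4 receptor. It was read by 5 probe sets. The brightest (1451775_s_at) read 319 with no virus, 664 with AdOVA and 423 with AdIkBa-SR when TNFa was absent, and 355, 814 and 343 in that order when it was present. The 2 AdOVA arrays were again the highest, and the AdIkBa-SR array lay between them and the untreated one. Its log2 difference was 1.13 with AdOVA (SE 0.25, limma adjusted p = 0.00875) and -0.95 with AdIkBa-SR against AdOVA (SE 0.25, limma adjusted p = 0.0265). Probe set 1427164_at read 198 with no virus, 530.5 with AdOVA and 280.0 with AdIkBa-SR when TNFa was absent, and 248, 525 and 220.2 in that order when it was present. Its AdOVA difference was 1.25 (limma adjusted p = 0.00757) and its AdIkBa-SR difference -1.09 (limma adjusted p = 0.0199). In this probe set too the AdOVA arrays did not overlap with the others.

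The remaining Il13ra1 probe sets had smaller AdOVA differences. For 1427165_at the signals were 235 with no virus, 562 with AdOVA and 319 with AdIkBa-SR when TNFa was absent, and 404, 644 and 261 in that order when it was present. It was also 1.72-fold higher with TNFa alone than untreated, and its AdOVA+TNFa signal was 1.59-fold that with TNFa, against 2.40-fold in the pair without TNFa. limma gave 0.97 with AdOVA (adjusted p = 0.0311) and -1.06 with AdIkBa-SR against AdOVA (adjusted p = 0.0207). For 1454783_at the signals were 294 with no virus, 569 with AdOVA and 385 with AdIkBa-SR when TNFa was absent, and 284, 504 and 230.3 in that order when it was present. It passed the test with AdOVA (0.89, limma adjusted p = 0.0415) but not with AdIkBa-SR against AdOVA (-0.85, 95% interval -1.39 to -0.31, limma adjusted p = 0.0551). The dimmest, 1425625_at, ran from 94.1 untreated to 184 with AdOVA+TNFa, with differences of 0.52 and -0.55 that did not pass. All 5 had their highest signal on an AdOVA array.

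**Figure D1:**
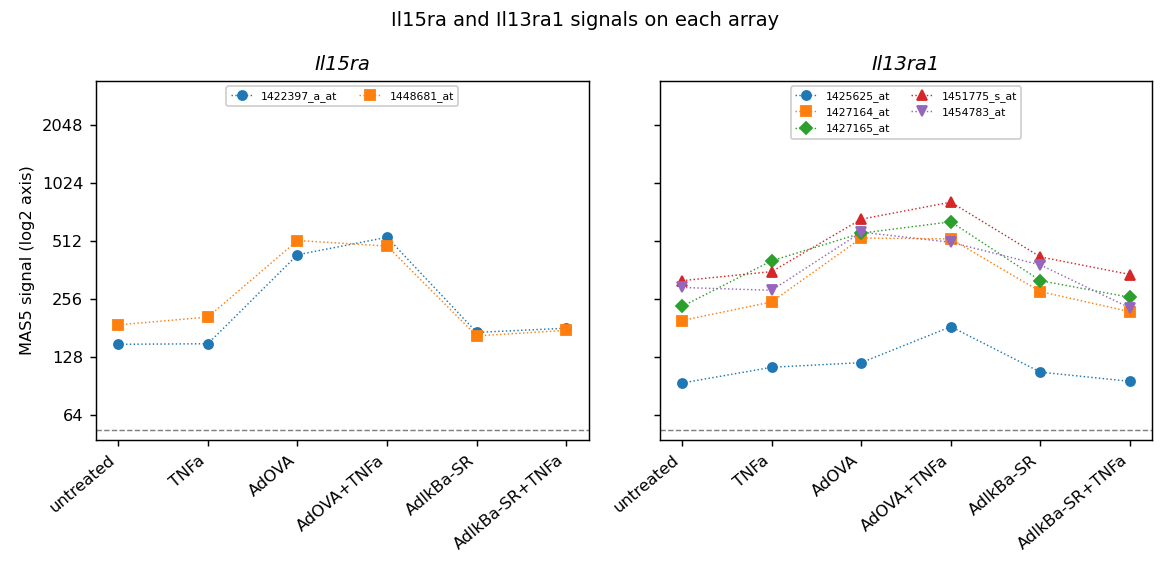
MAS5 signal (log2 axis) of each Il15ra probe set (left) and Il13ra1 probe set (right) on each of the 6 arrays; each point is 1 array, dotted lines join points of 1 probe set and the dashed line is the floor of 53.5. Both AdOVA arrays lie above the other 4 for all 7 probe sets, from 434 to 535 for the Il15ra probe set 1422397_a_at against 149 to 181 elsewhere.

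Counts over single arrays use no model. At least 2-fold higher signals with AdOVA in both pairs (AdOVA over untreated, AdOVA+TNFa over TNFa) were found for 4 of 20 receptor probe sets, 2 of Il15ra and 2 of Il13ra1, and for 1.91% of all measured probe sets. At least 2-fold lower signals with AdIkBa-SR than with AdOVA in both pairs were found for 2, both of Il15ra, and for 1.65% of all. A gap of at least 2-fold between every AdOVA array and each of the other 4 was found for the same 2 Il15ra probe sets, and for 0.745% of all. A looser rule, both AdOVA arrays above all others, held for 8 of 20: both Il15ra, all 5 Il13ra1 and the dim Il4ra probe set 1447858_x_at. That rule held for 21.1% of all measured probe sets.

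Because fluidics round and virus state are partly mixed, 1 pair within each round was also read. AdOVA over untreated lies in round 1, and AdIkBa-SR+TNFa over AdOVA+TNFa lies in round 2 with 1 wash protocol; the pairs share no array. For 5 receptor probe sets, 2 of Il15ra and 3 of Il13ra1, signals were at least 2-fold higher in the first pair and at least 2-fold lower in the second, against 1.7% of all. For the Il15ra probe set 1422397_a_at the folds were 2.91 higher and 2.96 lower, and for 1448681_at 2.73 higher and 2.73 lower. The median over all measured probe sets in the second pair was -0.12 on the log2 scale, or 0.06 after arrays were set to equal medians. These medians include signals raised to the floor, and the part of array scaling in the folds was not tested.

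**Figure D2:**
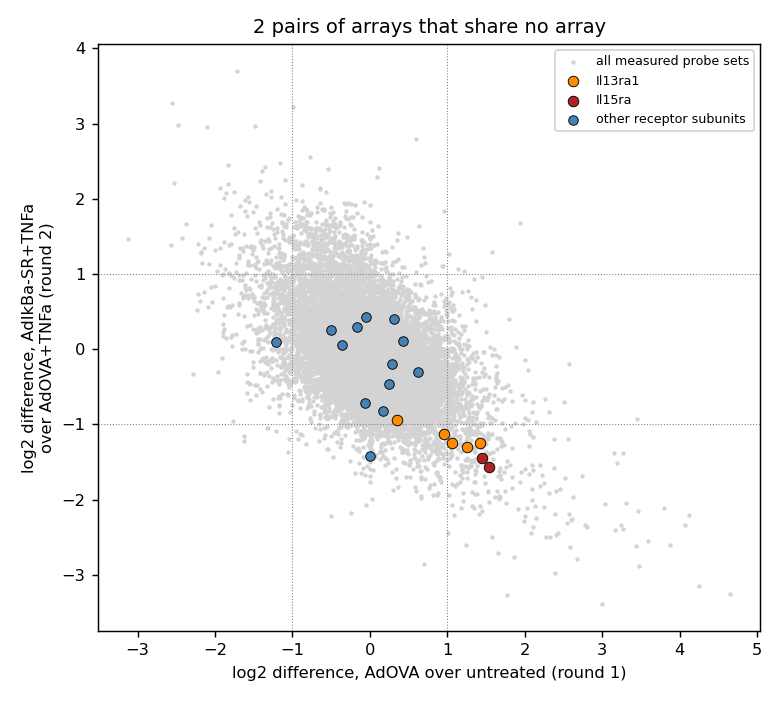
log2 difference of AdOVA over untreated (x axis, round 1) against that of AdIkBa-SR+TNFa over AdOVA+TNFa (y axis, round 2); grey points are all 14906 measured probe sets, coloured points the 20 receptor probe sets, and dotted lines mark 2-fold. Both Il15ra and 3 Il13ra1 probe sets lie past 2-fold on both axes, in the lower right.

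Single arrays were left out in an additive fit, with 1 TNFa response for all virus states, and with all 6 arrays that fit itself called 4 of the 20 receptor probe sets for AdOVA and 2 for AdIkBa-SR against AdOVA. In additive fits without the untreated, the TNFa, the AdOVA or the AdOVA+TNFa array, 0 of the 20 passed in either comparison, but few of all probe sets did, 0 to 8 for AdOVA and 0 to 46 for AdIkBa-SR against AdOVA. Without AdIkBa-SR+TNFa 1 of the 20 fell, Il15ra 1448681_at, where 184 of all were called. Calls were also scarce among all probe sets in some other settings: 116 for AdOVA and 65 for AdIkBa-SR against AdOVA with a lower floor (0 and 0 of the receptors), 265 and 148 with quantile normalization (1 and 0), and 0 without a filter on low signals or with the fluidics round as a block. They were not scarce for AdIkBa-SR against AdOVA with equal medians (859 of all) or a higher floor (523). No Il13ra1 probe set was called there, while both Il15ra probe sets were. Over 16 fits the AdOVA difference of Il15ra 1448681_at lay between 1.18 and 1.44, and that of 1422397_a_at between 1.53 and 1.82. Many of these fits could not move the values. Changing the floor, filter or trend, or leaving out AdIkBa-SR arrays, left them at 1.34 and 1.69. Il13ra1 1427165_at varied more, from 0.55 without the untreated array to 1.38 without the TNFa array. Its AdIkBa-SR difference against AdOVA ran from -1.45 without the AdIkBa-SR array to -0.67 without AdIkBa-SR+TNFa, and that of 1454783_at was -0.53 without AdIkBa-SR+TNFa.

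Il4ra, the chain shared by the type I and type II IL-4 receptors and the partner of IL-13 receptor alpha 1, was higher in value with AdOVA but did not pass the test. Its brightest probe set (1421034_a_at) read 335 with no virus, 515 with AdOVA and 354 with AdIkBa-SR when TNFa was absent, and 363, 670.4 and 543 in that order when it was present. The groups overlap, since AdIkBa-SR+TNFa lay above AdOVA. The fitted AdOVA difference was 0.75 (95% interval 0.23 to 1.28, limma adjusted p = 0.0708). A second probe set (1423996_a_at) stayed between 122 and 141 on 4 arrays, the TNFa one included, and read 412 with AdOVA+TNFa and 251 with AdIkBa-SR+TNFa. With TNFa its signal was thus 3.07-fold higher in AdOVA cells and 2.06-fold higher in AdIkBa-SR cells, but 1.09-fold lower in cells with no virus. limma's TNFa difference for it was 0.75 (95% interval -0.03 to 1.53, adjusted p = 0.474) and that in AdIkBa-SR cells 1.04 (-0.06 to 2.14).

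Csf2ra encodes the private alpha chain of the GM-CSF receptor and Csf2rb the beta chain that GM-CSF shares with IL-3 and IL-5. Csf2ra (1420703_at) read 1118 with no virus, 1499 with AdOVA and 1227 with AdIkBa-SR when TNFa was absent, and 1051, 1735 and 1874 in that order when it was present. The highest array was thus AdIkBa-SR+TNFa, not an AdOVA array. Its AdOVA difference of 0.57 (95% interval 0.07 to 1.08, limma adjusted p = 0.159) and its AdIkBa-SR difference against AdOVA of -0.09 (-0.60 to 0.42) did not pass. The other Csf2ra probe set, 1420704_at, lay near the floor, from 44.2 to 76.0. Csf2rb (1421326_at) read 4854 with no virus, 3416 with AdOVA and 4724 with AdIkBa-SR when TNFa was absent, and 4815, 4379 and 5237 in that order when it was present. Here both AdOVA arrays were the lowest, but the AdOVA difference of -0.32 (95% interval -0.93 to 0.29, limma adjusted p = 0.542) did not pass, and its interval does not exclude a fall of close to 2-fold. Csf2rb2, the second mouse beta chain, which pairs for IL-3, spanned 4410 to 5638 and passed in neither comparison.

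Il10ra encodes the chain that binds IL-10, and Il10rb the second chain, shared with receptors of IL-22 and lambda interferons. Il10ra (1448731_at) read 107 with no virus, 119.9 with AdOVA and 112 with AdIkBa-SR when TNFa was absent, and 115, 267 and 152 in that order when it was present. One array, AdOVA+TNFa, stood apart at 2.33-fold TNFa and 2.23-fold AdOVA, while AdOVA alone was 1.12-fold untreated. Neither its AdOVA difference (0.69, 95% interval -0.04 to 1.42, limma adjusted p = 0.239) nor its TNFa difference (0.63, -0.10 to 1.36, limma adjusted p = 0.531) passed. Il10ra 1437808_x_at also had its highest signal, 143, with AdOVA+TNFa, but was under the floor on 3 arrays. Il10ra 1456173_at, at 2.08 to 3.09, was the receptor probe set not tested. Il10rb (1419455_at) varied little: 811 with no virus, 720.4 with AdOVA and 956 with AdIkBa-SR when TNFa was absent, and 874, 830.2 and 1019 in that order when it was present. Its AdOVA difference was -0.12 (95% interval -0.62 to 0.37) and its AdIkBa-SR difference against AdOVA 0.35 (-0.14 to 0.85).

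Il6ra encodes the IL-6 binding chain and Il17ra the chain common to IL-17 family receptors. Il6ra (1422270_a_at) lay between 115 (AdOVA+TNFa) and 168 (untreated), with an AdOVA difference of -0.16 (95% interval -0.84 to 0.52). Its other probe set, 1452416_at, was above the floor on 2 arrays only, AdOVA at 66.5 and AdIkBa-SR+TNFa at 70.6. Il17ra (1420905_at) read 186 with no virus, 145 with AdOVA and 199 with AdIkBa-SR when TNFa was absent, and 225, 227 and 236 in that order when it was present. Il17ra 1420904_at had the same lowest array, 64.0 with AdOVA, and read 149 in untreated and 87.5 in AdIkBa-SR cells; on the TNFa arrays it read 159.7 to 179.8. In both Il17ra probe sets each TNFa array was above its partner without TNFa. The fitted TNFa differences were 0.46 (95% interval -0.18 to 1.10) and 0.75 (-0.01 to 1.5), and neither passed limma's test (adjusted p = 0.622 and 0.453).

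**Figure D3:**
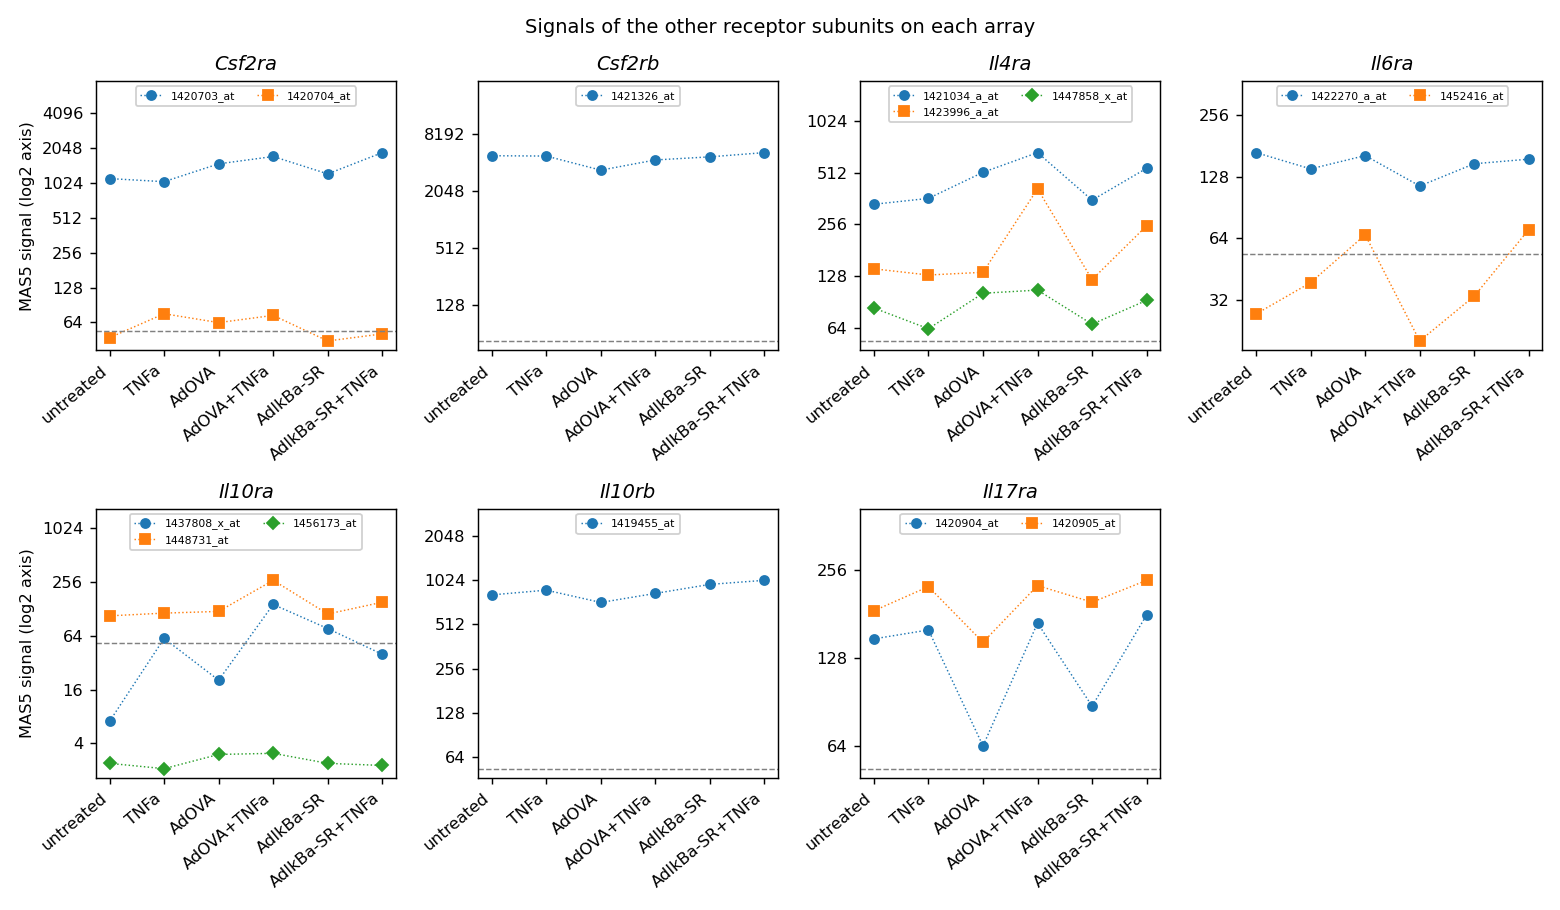
MAS5 signal (log2 axis) of the probe sets of Csf2ra, Csf2rb, Il4ra, Il6ra, Il10ra, Il10rb and Il17ra on each array; each point is 1 array and the dashed line is the floor of 53.5. None of those tested passed limma's test; Il4ra 1423996_a_at and Il10ra 1448731_at are highest with AdOVA+TNFa, at 412 and 267.

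The TNFa effect, a mean of the pair without virus and the pair with AdOVA, gave no called receptor. In limma's fit 0 of 20 receptor probe sets passed for the TNFa effect, where 4 of all measured probe sets (0.0268%) did; 1 of the 20, Il10ra 1437808_x_at, had an unadjusted p under 0.05, against 1653 of all. At least 2-fold higher signals with TNFa in both pairs were found for 0 of 20 and for 0.134% of all. Within AdIkBa-SR cells the TNFa effect was called for 0 receptor probe sets and 0% of all (0 and 760 at an unadjusted p under 0.05). Its difference from the TNFa effect in the other cells was likewise called for 0 and 0% (1 and 737 unadjusted). AdIkBa-SR against no virus gave 0 of 20, where 5 of all (0.0335%) were called, and 0 and 815 at an unadjusted p under 0.05. With so few calls among all probe sets, a count of 0 of 20 is no result about the receptors.

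**Figure D4:**
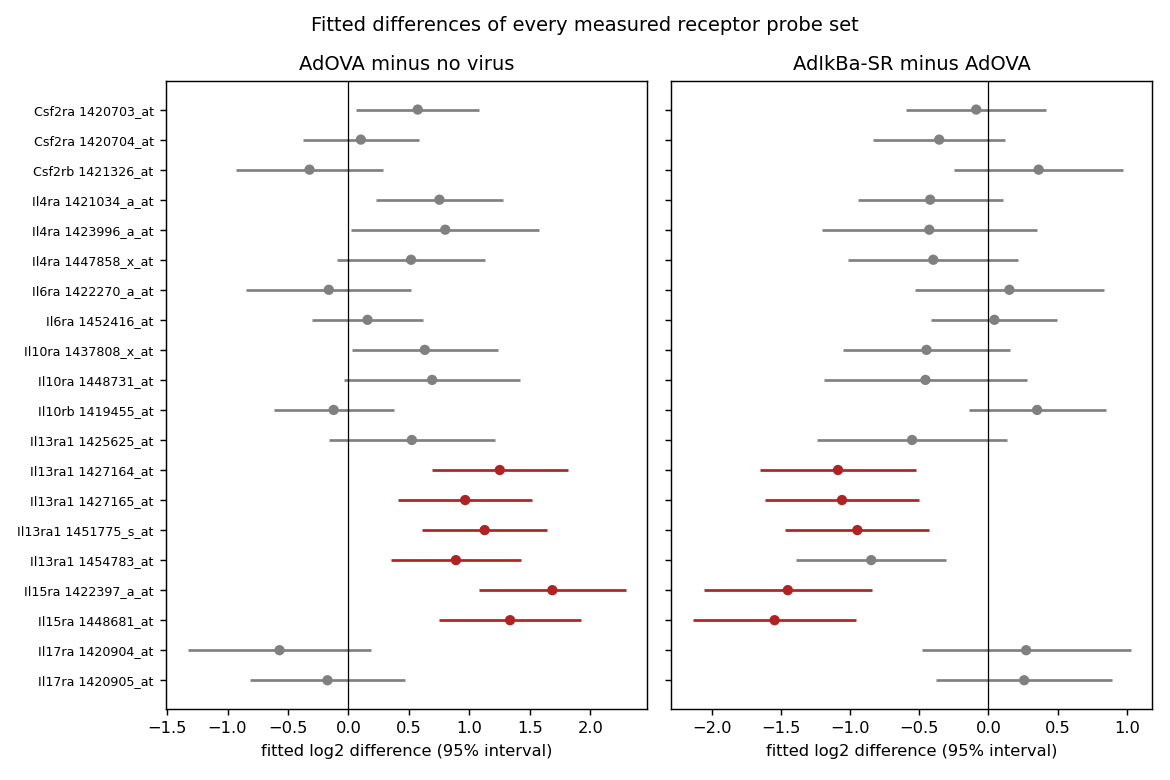
Fitted log2 differences with 95% intervals for the 20 measured receptor probe sets, AdOVA minus no virus (left) and AdIkBa-SR minus AdOVA (right); red marks limma adjusted p under 0.05 and grey the rest. Il15ra and Il13ra1 probe sets are the red ones, from 0.89 to 1.69 on the left and from -1.55 to -0.95 on the right.

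The neighbouring genes of these pathways were read from lists. Of 39 other receptor chains, 33 had probe sets, and 38 of their 48 probe sets were measured, for 27 genes. Il1r2, the decoy IL-1 receptor, rose with AdOVA (269 to 747 in the untreated pair, 297 to 514 in the TNFa pair, log2 1.13, limma adjusted p = 0.0126), and Il1r1, the signalling IL-1 receptor, fell with AdIkBa-SR against AdOVA (486 to 184 and 303 to 178, log2 -1.08, limma adjusted p = 0.0335). No other chain was called in these comparisons. Il6st, the gp130 partner of Il6ra, read 127 to 224 with its highest signal in AdOVA+TNFa and was not called. The median log2 differences of this list were 0.25 with AdOVA and -0.27 with AdIkBa-SR against AdOVA, beside the 0.06 and -0.09 over all measured probe sets given above.

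Of 20 ligands, 15 had probe sets, and 5 of their 16 probe sets were measured, with medians of 0.50 and -0.67. Il6 rose with AdOVA, 213 to 3114 in the untreated pair and 326 to 2749 in the TNFa pair, and was back at 264 and 452 in AdIkBa-SR cells (log2 3.48 and -3.08, limma adjusted p = 1e-07 and 1.49e-06). Il15, the ligand of Il15ra, read 134 with no virus, 191 with AdOVA and 117 with AdIkBa-SR when TNFa was absent, and 98.2, 197 and 67.8 in that order when it was present. It fell with AdIkBa-SR against AdOVA (-1.12, limma adjusted p = 0.0477), while its AdOVA difference of 0.76 did not pass (95% interval 0.06 to 1.45, limma adjusted p = 0.175). Both AdOVA arrays were the highest for the ligand as for the receptor chain, an order found for 21.1% of all measured probe sets. Csf2, the GM-CSF gene, was under the floor on all arrays, at 2.73 to 7.65.

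All 19 JAK and STAT probe sets, for 10 genes, were measured. With AdOVA 4 of them rose, of Stat2 and Stat3, where 4.03% of all measured probe sets rose. With AdIkBa-SR against AdOVA 5 fell, of Jak2, Stat2 and Stat3, where 3.39% of all fell. None was called the other way, and the medians were 0.33 and -0.55, beside 0.06 and -0.09 over all measured probe sets. Stat3, used by IL-6 and IL-10 receptors (1426587_a_at), read 558 with no virus, 939 with AdOVA and 654 with AdIkBa-SR when TNFa was absent, and 624, 1795 and 749 in that order when it was present. Jak2, the kinase of the GM-CSF receptor beta chain (1421065_at), read 830.3 with no virus, 1263 with AdOVA and 527 with AdIkBa-SR when TNFa was absent, and 1704, 1640 and 560.2 in that order when it was present. Both AdIkBa-SR arrays were the lowest for Jak2, below the untreated one (AdIkBa-SR against AdOVA -1.41, limma adjusted p = 0.00224). Stat6, used by IL-4 and IL-13 receptors, was not called; its brightest probe set ran from 428 with AdOVA to 1002 with AdOVA+TNFa.

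Among feedback and adaptor genes, 37 of 42 probe sets were measured, for 20 genes. Socs3, a feedback inhibitor of gp130 signalling (1416576_at), rose with AdOVA (757 to 1625 and 1004 to 2404, log2 1.18, limma adjusted p = 0.00487), as did 1 probe set each of Ptpn11 and Traf6. Traf3ip2, which encodes the IL-17 receptor adaptor Act1, fell with AdIkBa-SR against AdOVA (163 to 56.7 and 186 to 61.7, log2 -1.56, limma adjusted p = 0.00567). No other probe set of the list was called in either comparison. That is 3 of 37 risen with AdOVA, where 4.03% of all measured probe sets rose. Against AdOVA it is 1 of 37 fallen with AdIkBa-SR, where 3.39% of all fell. The medians were 0.09 and -0.12, beside 0.06 and -0.09 over all measured probe sets.

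The genes most like Il15ra and Il13ra1 over the 6 arrays were found among 4725 probe sets with at least 2-fold range, by Pearson's r of log2 signal. For Il15ra 1448681_at they were Gbe1, a glycogen branching enzyme (r = 0.994), Klk1b24 (0.993) and Zfpm2 (0.993). Gbe1 read 310.2 and 331 on the AdOVA arrays against 83.1 to 112 on the other 4. For Il13ra1 1451775_s_at they were Peli1, a ubiquitin ligase of Toll-like receptor signalling (r = 0.999), Iigp1, an interferon-inducible GTPase (0.997), and Mtmr7 (0.995). Iigp1 read 638 and 797 on the AdOVA arrays against 159 to 272 on the other 4. With 6 arrays and 4725 candidates such values describe the likeness of these arrays only.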

How the data were processed

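Per the labels, total RNA of 6 groups was hybridised to 1 MOE430A array each, and groups were taken from sample titles. The values are linear intensity signals deposited by the authors, and the submitters' processing notes name MAS5; the 2% trimmed mean was 200.1 on every array, so no rescaling was done. MAS5 scaling hides changes in total RNA, and signals near the floor are noisy and compressed.

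Of 22626 non-control probe sets (64 controls left out), 14906 were above the floor of 53.5 on at least 2 arrays. limma 3.58.1 (R 4.3.3; lmFit, then eBayes with a trend) was fitted to log2 signals with 5 coefficients: 3 virus states, 1 TNFa response common to virus-free and AdOVA cells, and 1 for AdIkBa-SR cells. Adjusted p under 0.05 was called. AdOVA and TNFa effects are means of 2 pairs, and the spread of AdIkBa-SR arrays is borrowed from the rest. p-values measure the spread between these arrays, which may be technical. Their number, 6, limits the precision. The fit was tested on simulated data for the AdOVA effect, 200 changed among 14906 probe sets: 38 were recovered at 2-fold (0 false calls), 200 at 4-fold (4 false) and 200 at 8-fold (8 false).

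Named genes were every probe set of the receptors, listed pathway genes where called or described beside a receptor, and the 3 genes most alike to a called receptor. The members and lists were chosen with earlier results of these data known. Alternatives changed the floor, filter, scaling, trend and fit; additive fits without each single array other than AdOVA+TNFa were added after seeing the data. Python 3.11.15 was used for counts and motifs.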

Additional observations from a re-analysis of the deposited data

How the results depend on the processing

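No paired analysis was possible because each group has 1 array and shares no replicate number that pairs cultures. Of the 20 receptor probe sets, limma called 6 for AdOVA in the fit described. This became 0 with the floor at the 20th percentile, 1 with quantile normalization (Il15ra 1422397_a_at), 0 without the filter on low signals, 0 with fluidics round as a block in an additive fit and 0 in an additive fit without the AdOVA+TNFa array; it was 4 with the higher floor, equal medians, no variance trend or the additive fit. Additive fits without each other array gave 0 to 6. For AdIkBa-SR against AdOVA the 5 calls became 0 with the lower floor, 2 with the higher floor, 2 with equal medians, 0 with quantile normalization, 0 without the filter, 2 in the additive fit, 0 with the round block and 0 in the additive fit without AdOVA+TNFa, and additive fits without each other array gave 0 to 5; without the variance trend it was 4. The 2 that were left with the higher floor, equal medians or the additive fit were both Il15ra probe sets. No Il15ra or Il13ra1 difference called in the fit changed its sign under any of these alternatives, and TNFa and AdIkBa-SR against no virus gave 0 calls in all of them. Changing the floor, filter, trend or to the additive fit left the called differences as they were, and all fits reused the same single arrays. An unchanged sign was therefore nearly fixed in advance. Under several of these settings few or no probe sets at all passed, 0 of all for AdOVA without the filter or with the round block, so a count of 0 there does not single out the receptors. Dim probe sets, such as Il6ra 1452416_at, have bounds only.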
